A study of Mus musculus with 6 samples.

Results

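The nuclear genes of oxidative phosphorylation code for most subunits of the 5 enzyme complexes in the inner mitochondrial membrane. They were taken from the deposited table by gene name (Ndufa, Ndufb, Ndufc, Ndufs and Ndufv with a number, Sdha to Sdhd, names starting with Uqcr, Cox4 to Cox8 followed by a letter, and names starting with Atp5, without pseudogenes marked "-ps"). The rule found 85 of the 56534 genes or loci: 36 of complex I, 4 of complex II, 8 of complex III, 19 of complex IV and 18 of complex V. Atp5o is listed in 2 rows, and its second row is at 0 in every library. A mean of at least 1 FPKM was reached by 78 of the 85, which were tested. FPKM counts fragments relative to gene length and to the mapped fragments of a library.

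Complexes I and II pass electrons from NADH and from succinate to coenzyme Q, complex III hands them to cytochrome c, and complex IV hands them to oxygen. Complexes I, III and IV pump protons as they do so, and complex V (ATP synthase) lets the protons flow back to make ATP. A few core subunits of complexes I, III, IV and V are encoded by mitochondrial DNA, whereas complex II is wholly nuclear. In liver this chain draws on fatty acid oxidation and pays for glucose, urea and lipid synthesis.

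RNA came from liver of C57BL/6 mice fed a diet with 60 kcal% fat for 16 weeks. The groups were 3 libraries of wild type mice (CON 1 to CON 3) and 3 of CD36-/- mice (LKO 1 to LKO 3), in which, per the series title, the knockout is restricted to hepatocytes, so the other liver cells keep the gene. CD36 takes up long-chain fatty acids. The comparison asks how liver RNA differs without it. Age, sex, the Cre line and whether each library is a separate animal are not given in the labels, so p-values measure only the spread between these libraries, which may be technical.

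Cd36 was listed at 61.95, 26.49 and 19.66 FPKM in CON 1 to CON 3 and at 2.73, 3.70 and 10.22 FPKM in LKO 1 to LKO 3. All LKO libraries were below all CON libraries, with the third LKO library nearest to them (log2 fold change -2.50 ± 0.51 SE, limma adjusted p = 0.163). The exact two-sided permutation p was 0.1, below which groups of 3 and 3 cannot go. Over all tested genes, LKO 3 also stood closer to the controls than to its own group: its log2 values correlated across genes with those of CON 3 at r = 0.976, against 0.949 for LKO 1 and 0.934 for LKO 2. The counts of members called, and those of the gene lists, are therefore also given without LKO 3. The 10 hepatocyte markers were all at a mean of 1 FPKM or more and summed to 51200 to 71800 FPKM in CON and 45400 to 56100 in LKO. Kupffer cell markers summed to 123 to 182 FPKM in CON and 91.1 to 184 in LKO, and endothelial markers to 45.7 to 118 and 57.9 to 86.9. Stellate cell markers summed to 89.1, 84.2 and 90.8 FPKM in CON and to 107, 119 and 80.8 in LKO, and cholangiocyte markers to 51.5, 34.7 and 29.4 in CON and to 56.3, 74.9 and 34.1 in LKO. Both sums were above every control in LKO 1 and LKO 2 and not in LKO 3, as most OXPHOS members were. Most of each sum came from its largest gene, Dcn for stellate cells and Spp1 for cholangiocytes. Besides these, only Des and Krt7, at means of 1.31 and 0.248 FPKM over the libraries, were above every control in both LKO 1 and LKO 2. The other markers of both lists were not, and the stellate markers Lrat and Reln had log2 fold changes of -0.23 and -0.16. Lymphocyte and neutrophil markers summed to 6.06 to 11.6 FPKM in CON and 3.47 to 7.07 in LKO, erythroid markers to 92.1 to 610 and 145 to 335, and muscle and adipose markers to 0.930 to 18.7 and 0.690 to 0.990. Of the muscle and adipose markers 3 of 8 were listed at 0 in every library, and no marker of the other lists was. The part of other cells in the results was not tested. In bulk RNA, fewer cells of a type and less RNA per cell cannot be told apart.

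Relative to the other genes, most nuclear OXPHOS genes were higher in LKO 1 and LKO 2 and not in LKO 3, and complex II was the exception. Of the 78 tested members, 51 stood above every CON library in both LKO 1 and LKO 2, where 13.5% of all 11104 tested genes did so. In 47 of these 51, LKO 3 was not above the controls (9.56% of all genes). Both LKO 1 and LKO 2 were below every CON library for 7 members (46.6% of all genes). The median member deviated from its CON mean by 0.39, 0.27 and -0.09 in LKO 1, LKO 2 and LKO 3 on the log2(FPKM + 1) scale, and the median of all tested genes by -0.21, -0.38 and -0.11.

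**Figure D1:**
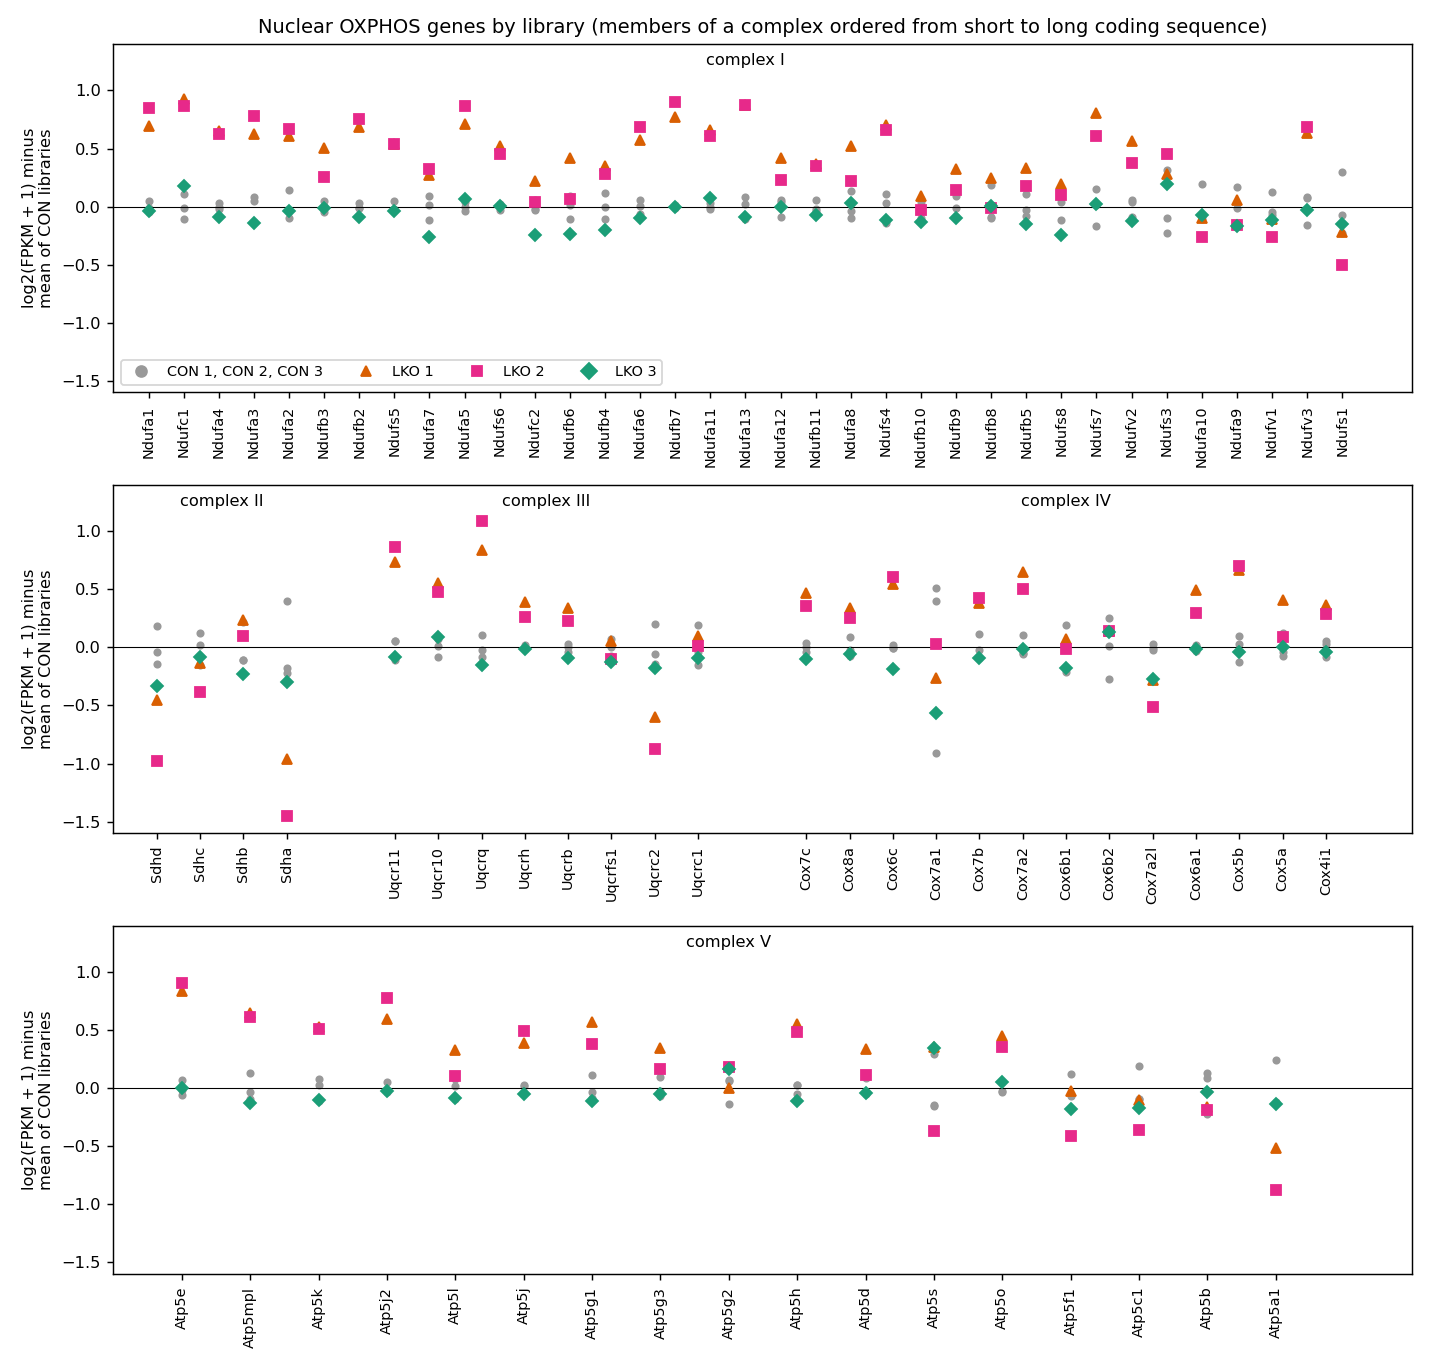
Deviation of the tested members, 1 of them left out of the plot, from the mean of the CON libraries, in log2(FPKM + 1), for every library. Genes are along the x axis by complex and, within a complex, from short to long coding sequence; grey circles are the CON libraries. LKO 1 and LKO 2 lie above the CON libraries for most members, above all on the left of each panel, while LKO 3 lies among or below them, and Sdha, Sdhd, Uqcrc2 and Atp5a1 lie far below in LKO 1 and LKO 2.

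With all 6 libraries no member passed the threshold of 0.05 in limma with Benjamini-Hochberg adjustment, 0 higher and 0 lower. Among all tested genes 0% were called higher and 0.00901% lower. At an unadjusted p under 0.05 there were 2 members higher, Ndufc1 and Ndufa5 (3.25% of all genes), and 3 lower, Sdha, Sdhd and Uqcrc2 (18.9%). The smallest adjusted p of a member was 0.193. The log2 fold change was above 0 for 61 of 78 members (28.4% of all genes), with a median of 0.21 against -0.23 for all tested genes, a difference of 0.44. Scaling the libraries to a common median ratio moved the median of all genes to 0.01 and that of the members to 0.51. Then 72 members were above 0 (51.1% of all genes), and 27 were higher at an unadjusted p under 0.05 (10.2%) and 0 lower (7.96%). Leaving the mitochondrial genes out and rescaling turned the direction: the members' median was -0.07 and 29 were above 0, beside a median of -0.46 for all genes, so the difference between them was 0.39. Wherever mitochondrial genes are said to be left out, the libraries were also rescaled to the same summed FPKM. Before that the sums were 831928, 928647 and 976871 in CON and 1179405, 1271880 and 959442 in LKO. Turned signs in this setting therefore cannot be credited to the mitochondrial genes, and the 2 steps were not tested apart.

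At an unadjusted p under 0.05 the fit without LKO 3 had 36 members higher (8.56% of all genes) and 5 lower (33.0%), and 62 members were above 0. After adjustment without LKO 3, 25 members were called higher in limma, 32.1% of the 78 beside 4.60% of all tested genes. There were 4 called lower, 5.13% of the members beside 19.0% of all genes. The 25 were 16 of complex I, 2 of complex III, 3 of complex IV and 4 of complex V, and the 4 called lower were Sdha, Sdhd, Uqcrc2 and Atp5a1. With the length trend of each library also removed, 17 members were called higher and 3 lower (6.30% and 5.71% of all genes). With median-ratio scaling in its place, 52 were called higher and 1, Sdha, lower (11.3% and 8.26% of all genes). The fits without LKO 3 hold 2 LKO libraries, and both were alike in their trend with gene length, described further on. LKO 3 was set apart for its likeness to the controls in these same data. Larger differences and more calls without it follow in part from that choice. All calls without LKO 3, here and for single genes and lists, are therefore descriptions and no independent support.

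The groups of all 6 libraries did not overlap for 11 members. Ndufa5, Ndufa11, Ndufc1 and Uqcr10 were above in every LKO library (4 of 78, 3.92% of all genes). Sdha, Sdhd, Uqcrc2, Cox7a2l, Atp5a1, Ndufv1 and Atp5c1 were below in every LKO library (7 of 78, 24.3% of all genes). Taken by itself, LKO 3 was above all controls for 6 members (17.2% of all genes), below for 36 (40.7%) and within their range for 36 (42.1%). Members varied little among the CON libraries, with a median coefficient of variation of 6.73%, and more among the LKO libraries, with 18.6%.

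Summed over its members, complex I held 5256, 5191 and 4990 FPKM in CON 1 to CON 3 and 7293, 7130 and 4868 FPKM in LKO 1 to LKO 3. Complex II held 668, 522 and 516 FPKM in CON and 472, 385 and 476 FPKM in LKO. Complex III held 2841, 2800 and 2681 FPKM in CON and 4063, 4231 and 2636 FPKM in LKO. In all but complex II, LKO 1 and LKO 2 were above every control and LKO 3 below every control, whereas complex II was lower in each LKO library. Complex IV held 4677, 4509 and 4341 FPKM in CON and 6006, 5627 and 4271 FPKM in LKO. Complex V held 5909, 5419 and 5555 FPKM in CON and 7076, 6725 and 5363 FPKM in LKO. The ratio of group means, LKO over CON, was 1.25, 0.782, 1.31, 1.18 and 1.14 for complexes I to V, and 1.56, 0.963, 1.65, 1.46 and 1.41 after median-ratio scaling. The members together took 2.33%, 1.99% and 1.85% of the summed FPKM in CON 1 to CON 3. In LKO 1 to LKO 3 they took 2.11%, 1.89% and 1.84%, so their share of this sum was not higher in LKO. Such a share also depends on the other genes in the sum. The major urinary protein (Mup) genes took 6.22%, 15.6% and 22.1% of it in CON and 29.4%, 28.9% and 23.9% in LKO. The members' share without the Mup genes was not tested.

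**Figure D2:**
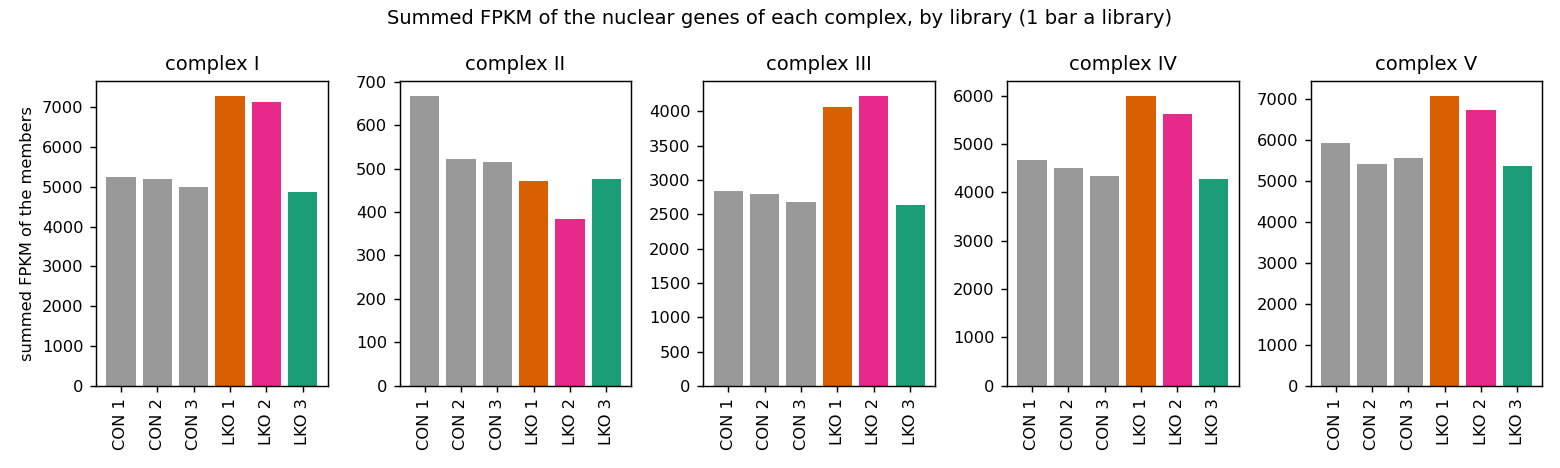
Summed FPKM (y axis, from 0) of the nuclear genes of complexes I to V, 1 bar for each library; the y scale differs between panels. LKO 1 and LKO 2 exceed every CON library in complexes I, III, IV and V, LKO 3 stands just below the lowest CON library there, and complex II is lower in all 3 LKO libraries.

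Complex I is the largest complex, with catalytic core subunits (nuclear ones include Ndufs1, Ndufs3, Ndufs7, Ndufs8, Ndufv1 and Ndufv2) and many small accessory subunits around them. Of its 36 members 31 had a log2 fold change above 0 (median 0.26), and 27 were above every control in LKO 1 and LKO 2. Ndufc1, a small accessory subunit of the membrane arm, was at 98.94, 105.78 and 115.06 FPKM in CON and at 203.36, 195.26 and 120.10 FPKM in LKO. All LKO libraries were above the controls, by little in LKO 3 (log2 fold change 0.66 ± 0.23 SE, limma adjusted p = 0.196). Ndufa5, an accessory subunit of the matrix arm, was at 96.93, 91.46 and 93.91 FPKM in CON and at 154.66, 172.70 and 98.65 FPKM in LKO (0.55 ± 0.23, adjusted p = 0.222). Ndufa11, a membrane subunit, was at 118.54, 114.47 and 115.60 FPKM in CON and at 184.42, 177.73 and 122.74 FPKM in LKO (0.45 ± 0.20, adjusted p = 0.234). These 2 genes showed the same picture, high in LKO 1 and LKO 2 and just above the controls in LKO 3.

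Ndufb7, an accessory subunit facing the intermembrane space, was at 153.49, 154.29 and 156.20 FPKM in CON and at 265.27, 288.72 and 153.86 FPKM in LKO (0.55 ± 0.25, adjusted p = 0.240). Its LKO 3 value lay inside the narrow control range, so the groups overlapped. Ndufa1 was at 237.76, 254.03 and 243.50 FPKM in CON and at 397.56, 442.47 and 238.44 FPKM in LKO (0.50 ± 0.25, adjusted p = 0.266). Ndufa2, a subunit of the NADH-oxidising module, was at 168.36, 190.46 and 161.00 FPKM in CON and at 264.10, 274.87 and 167.94 FPKM in LKO (0.41 ± 0.23, adjusted p = 0.301). Ndufb2 was at 132.68, 132.57 and 136.48 FPKM in CON and at 215.31, 226.98 and 125.45 FPKM in LKO (0.45 ± 0.25, adjusted p = 0.297). In each of these accessory subunits LKO 1 and LKO 2 stood well clear of the controls and LKO 3 did not.

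Ndufa4, named as a complex I gene and since recognised as a subunit of complex IV, had the highest mean level of the Nduf genes. It was at 588.78, 610.97 and 596.94 FPKM in CON and at 942.48, 924.83 and 561.56 FPKM in LKO (0.40 ± 0.24, adjusted p = 0.334). Without LKO 3, limma called each of these 8 genes higher, with log2 fold changes of 0.90 for Ndufc1 (adjusted p = 0.0187), 0.79 for Ndufa5, 0.64 for Ndufa11, 0.84 for Ndufb7, 0.77 for Ndufa1, 0.64 for Ndufa2 (adjusted p = 0.0337, the largest of the 8), 0.72 for Ndufb2 and 0.64 for Ndufa4.

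Among the core subunits of complex I, Ndufs7, which carries the last iron-sulfur cluster before coenzyme Q, averaged 110.76 ± 12.1 FPKM in CON and 158.17 ± 41.7 in LKO (SD, n = 3 libraries each). Ndufv2 averaged 75.5 ± 4.14 and 93.0 ± 21.98 FPKM, and Ndufs8 101 ± 6.75 and 103 ± 15.9. Ndufs1, the largest subunit, averaged 41.1 ± 8.15 in CON and 33.2 ± 4.27 in LKO. Ndufv1, which binds NADH and flavin, was at 89.17, 77.71 and 79.09 FPKM in CON and at 75.78, 68.09 and 75.48 FPKM in LKO, so that every LKO library was below every control. Its log2 fold change was -0.16 ± 0.16 SE (limma adjusted p = 0.526) and turned to 0.13 under median-ratio scaling.

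Complex II, succinate dehydrogenase, is also an enzyme of the citric acid cycle. None of its 4 genes was above the controls in LKO 1 and LKO 2, and its median log2 fold change was -0.39. Sdha, the flavin-bearing catalytic subunit, was at 195.63, 130.70 and 127.46 FPKM in CON and at 75.74, 53.60 and 120.25 FPKM in LKO. All LKO libraries were below the controls, LKO 3 by a small step (log2 fold change -0.90 ± 0.32 SE, limma adjusted p = 0.193). Sdhd, a membrane anchor, was at 157.41, 125.02 and 135.15 FPKM in CON and at 101.03, 70.06 and 109.96 FPKM in LKO (-0.59 ± 0.22, adjusted p = 0.199). Sdhc, the other anchor, was at 122.53, 114.32 and 101.33 FPKM in CON and at 102.46, 85.99 and 106.14 FPKM in LKO, which overlapped (-0.20 ± 0.17, adjusted p = 0.477), and its direction turned under median-ratio scaling (0.10). Sdhb, the iron-sulfur subunit, was at 191.97, 152.02 and 152.14 FPKM in CON and at 193.17, 175.71 and 140.13 FPKM in LKO (0.03 ± 0.20, adjusted p = 0.929, and -0.25 with mitochondrial genes left out). The catalytic flavoprotein and its iron-sulfur partner, present in equal number in the enzyme, thus had unequal RNA differences in LKO 1 and LKO 2. Without LKO 3, limma called Sdha (log2 fold change -1.21, adjusted p = 0.0254) and Sdhd (-0.71, adjusted p = 0.0496) lower.

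Complex III joins 2 large core proteins, Uqcrc1 and Uqcrc2, with small subunits and the Rieske protein. Uqcrc2 was at 121.50, 95.26 and 101.34 FPKM in CON and at 69.11, 56.93 and 93.25 FPKM in LKO, below the controls in every library (log2 fold change -0.55 ± 0.22 SE, limma adjusted p = 0.212). Uqcrc1 was at 176.01, 138.34 and 149.50 FPKM in CON and at 165.21, 155.44 and 143.91 FPKM in LKO, all within the control range (0.01 ± 0.17, adjusted p = 0.984, and -0.28 with mitochondrial genes left out). The small subunits stood on the other side. Uqcrq, which sits against cytochrome b, was at 720.11, 791.31 and 691.17 FPKM in CON and at 1315.33, 1554.73 and 658.24 FPKM in LKO (0.59 ± 0.32, adjusted p = 0.295), the widest spread between LKO libraries among the named genes of this complex. Uqcr11 was at 495.11, 496.67 and 442.99 FPKM in CON and at 797.76, 871.83 and 449.79 FPKM in LKO (0.51 ± 0.27, adjusted p = 0.289). Uqcr10 was at 470.76, 422.40 and 452.34 FPKM in CON and at 656.92, 623.54 and 475.72 FPKM in LKO, above the controls throughout (0.37 ± 0.20, adjusted p = 0.281). Uqcrb was at 338.50, 344.67 and 329.19 FPKM in CON and at 426.46, 394.10 and 316.72 FPKM in LKO (0.16 ± 0.18, adjusted p = 0.599, and -0.13 with mitochondrial genes left out). The Rieske protein gene Uqcrfs1 averaged 156 ± 7.82 FPKM in CON and 150.27 ± 10.6 in LKO (SD, n = 3 each). Without LKO 3, limma called Uqcrq (log2 fold change 0.96, adjusted p = 0.0204) and Uqcr11 (0.80, adjusted p = 0.0242) higher and Uqcrc2 (-0.74, adjusted p = 0.0328) lower.

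**Figure D3:**
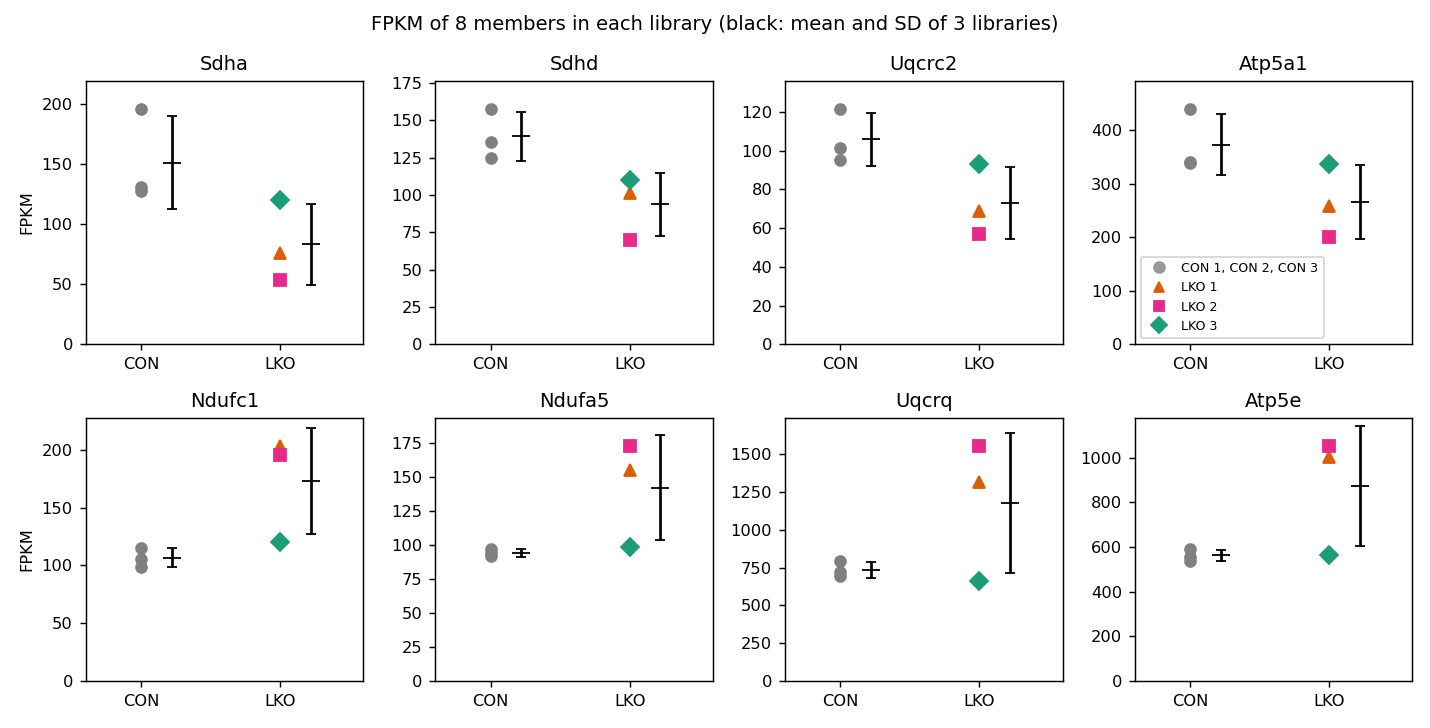
FPKM of 8 members in each library (y axis from 0, scale differs between panels), with the mean and SD of each group of 3 libraries in black. For Sdha, Sdhd, Uqcrc2 and Atp5a1 the LKO libraries lie below the controls, and for Ndufc1, Ndufa5, Uqcrq and Atp5e LKO 1 and LKO 2 lie far above while LKO 3 stays near the controls.

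Complex IV takes several of its nuclear subunits from pairs of isoform genes, one used in liver and most tissues and one in heart, muscle, lung or testis. The liver forms were abundant. Cox6a1 was at 846.01, 848.77 and 818.72 FPKM in CON and at 1180.01, 1030.91 and 829.92 FPKM in LKO (log2 fold change 0.26 ± 0.20 SE, limma adjusted p = 0.431). Cox4i1 was at 751.14, 767.60 and 696.42 FPKM in CON and at 951.80, 901.17 and 719.57 FPKM in LKO (0.21 ± 0.19, adjusted p = 0.508). Cox7a2 was at 199.26, 197.30 and 220.74 FPKM in CON and at 322.39, 292.38 and 203.91 FPKM in LKO (0.38 ± 0.21, adjusted p = 0.303). In these genes LKO 1 and LKO 2 were above the controls and LKO 3 within their range. Cox8a was at 550.40, 510.08 and 492.48 FPKM in CON and at 652.77, 615.19 and 496.19 FPKM in LKO (0.18 ± 0.19, adjusted p = 0.565). Cox7b was at 158.12, 137.64 and 143.94 FPKM in CON and at 190.93, 196.98 and 137.16 FPKM in LKO (0.24 ± 0.20, adjusted p = 0.458). Cox6b1 was at 509.61, 453.13 and 385.85 FPKM in CON and at 468.47, 442.82 and 394.12 FPKM in LKO, all within the control range (-0.04 ± 0.19, adjusted p = 0.905). With mitochondrial genes left out and the libraries rescaled to the same summed FPKM, Cox6a1, Cox4i1, Cox8a and Cox7b turned to just below 0.

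The other forms were near or at the bottom of the scale. Cox7a1, the heart and muscle form, was at 3.57, 0.70 and 3.21 FPKM in CON and at 1.67, 2.26 and 1.16 FPKM in LKO (-0.27 ± 0.38, adjusted p = 0.673). Cox6b2, the testis form, was at 0.86, 1.27 and 1.68 FPKM in CON and at 1.47, 1.47 and 1.46 FPKM in LKO (0.14 ± 0.19, adjusted p = 0.665). Cox4i2, the lung form, was at 0.32, 0.05 and 0 FPKM in CON and at 0.11, 0.19 and 0.05 FPKM in LKO. Cox6a2 ranged from 0.05 to 0.15 FPKM, Cox8b was listed at 0 in all but CON 3 (0.30 FPKM) and LKO 1 (0.75 FPKM), and Cox7b2 and Cox8c were listed at 0 in every library. A listed 0 is not read as absence, since mt-Atp6, a mitochondrial gene that every liver cell uses, is also listed at 0 in all 6 libraries. In the pairs with values above 0, the liver form had the far higher FPKM in both groups. Cox6c2, a further row of the name rule with no coding sequence in the reference, was listed at 0 throughout.

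Among the other subunits, Cox5b was at 248.66, 237.00 and 212.18 FPKM in CON and at 368.55, 378.94 and 225.24 FPKM in LKO (0.44 ± 0.24, adjusted p = 0.290). Cox6c was at 488.09, 496.11 and 487.23 FPKM in CON and at 715.33, 747.42 and 431.00 FPKM in LKO (0.32 ± 0.25, adjusted p = 0.424). Cox5a was at 279.75, 243.71 and 250.05 FPKM in CON and at 342.30, 273.51 and 257.42 FPKM in LKO (0.17 ± 0.19, adjusted p = 0.582, and -0.12 with mitochondrial genes left out). Cox5b and Cox6c repeat the pattern of high LKO 1 and LKO 2, and in Cox6c LKO 3 was the lowest of all libraries. Cox7a2l went the other way. It was at 102.64, 106.48 and 103.89 FPKM in CON and at 85.67, 72.71 and 86.39 FPKM in LKO, below the controls in every library (-0.36 ± 0.16, limma adjusted p = 0.234). The median of all genes was -0.23, and 24.3% of them were below in every LKO library. Its log2 fold change was -0.06 under median-ratio scaling and -0.36 with the length trend removed. Without LKO 3, limma called Cox5b (log2 fold change 0.68, adjusted p = 0.0291), Cox6c (0.58, adjusted p = 0.0397) and Cox7a2 (0.58, adjusted p = 0.0405) higher, and did not call Cox7a2l.

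Complex V consists of a catalytic part in the matrix, which holds the alpha (Atp5a1), beta (Atp5b), gamma (Atp5c1), delta (Atp5d) and epsilon (Atp5e) subunits, a peripheral stalk (Atp5o, Atp5f1 and others) and a membrane part. Atp5a1 was at 438.69, 339.75 and 338.80 FPKM in CON and at 258.68, 200.57 and 337.10 FPKM in LKO, below the controls in every library though barely so in LKO 3 (log2 fold change -0.51 ± 0.24 SE, limma adjusted p = 0.245). Atp5b, the most abundant of the members, was at 1118.23, 875.71 and 1081.37 FPKM in CON and at 912.11, 892.37 and 997.85 FPKM in LKO, within the control range (-0.13 ± 0.19, adjusted p = 0.687), and turned to 0.17 under median-ratio scaling. Atp5c1 was at 236.42, 194.55 and 194.59 FPKM in CON and at 193.67, 161.09 and 183.88 FPKM in LKO, below every control though barely so in LKO 1 (-0.21 ± 0.18, adjusted p = 0.459). It turned to 0.09 under median-ratio scaling. Atp5e, the smallest of these, was at 538.35, 590.61 and 556.38 FPKM in CON and at 1001.16, 1052.15 and 561.81 FPKM in LKO (0.58 ± 0.27, adjusted p = 0.242). Within the catalytic part, RNA in LKO 1 and LKO 2 was thus below the controls for alpha and far above them for epsilon. For gamma it was below them by little in LKO 1. The coding lengths of alpha, beta, gamma, delta and epsilon were 1659, 1587, 894, 504 and 156 bases. Their log2 fold changes were -0.51, -0.13, -0.21, 0.14 and 0.58, so beta stood above the shorter gamma. The relation of fold change to coding length across the members is described further on.

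In the peripheral stalk, Atp5o was at 197.68, 186.19 and 187.12 FPKM in CON and at 260.80, 243.37 and 197.62 FPKM in LKO (0.29 ± 0.18, adjusted p = 0.336). In the membrane part, Atp5j2 was at 231.81, 242.93 and 229.60 FPKM in CON and at 356.18, 402.80 and 230.78 FPKM in LKO (0.45 ± 0.23, adjusted p = 0.277). Atp5k was at 339.34, 327.60 and 298.36 FPKM in CON and at 463.22, 456.97 and 299.56 FPKM in LKO (0.31 ± 0.22, adjusted p = 0.395). LKO 1 and LKO 2 were again above all controls in these genes and LKO 3 within their range. Atp5mpl was at 330.30, 343.15 and 384.92 FPKM in CON and at 550.64, 537.73 and 322.47 FPKM in LKO (0.38 ± 0.25, adjusted p = 0.359). Atp5g1, 1 of 3 genes for the proton-carrying c ring, was at 317.11, 276.29 and 285.53 FPKM in CON and at 434.51, 381.67 and 271.46 FPKM in LKO (0.28 ± 0.22, adjusted p = 0.431). Atp5l was at 336.90, 351.16 and 312.06 FPKM in CON and at 417.15, 358.16 and 313.15 FPKM in LKO (0.11 ± 0.18, adjusted p = 0.707, and -0.17 with mitochondrial genes left out). Atp5l thus had LKO 2 only just above the highest control. Without LKO 3, limma called Atp5e (log2 fold change 0.87, adjusted p = 0.0204), Atp5j2 (0.69, adjusted p = 0.0281) and Atp5mpl (0.63, adjusted p = 0.0361) higher and Atp5a1 (-0.70, adjusted p = 0.0490) lower.

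The members are mostly short genes, and their fold changes followed the length of the coding sequence. Across the 78 members, Spearman's rho between log2 fold change and coding length was -0.55, against -0.22 across 9926 tested coding genes. These are descriptions across genes, which share the same 6 libraries and are not independent replicates. Within complexes it was -0.53 in complex I, -0.86 in complex III, -0.06 in complex IV and -0.82 in complex V. The median log2 fold change of the members was 0.38 for coding lengths under 300 bases (21 genes), 0.21 from 300 to under 600 bases (36), 0.07 from 600 to under 1000 bases (10) and -0.15 for 1000 bases or more (11). For all tested coding genes of the same classes the medians were 0.18, -0.02, -0.22 and -0.31, so the members' median was above that of other genes of like coding length in each class, by less than over all genes. Sdhd (477 bases) and Cox7a2l (333 bases) were low for short genes. Ndufv3 (1404 bases) was high for a long one, though it is known in a long and a short form and the reference transcript is the long one.

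**Figure D4:**
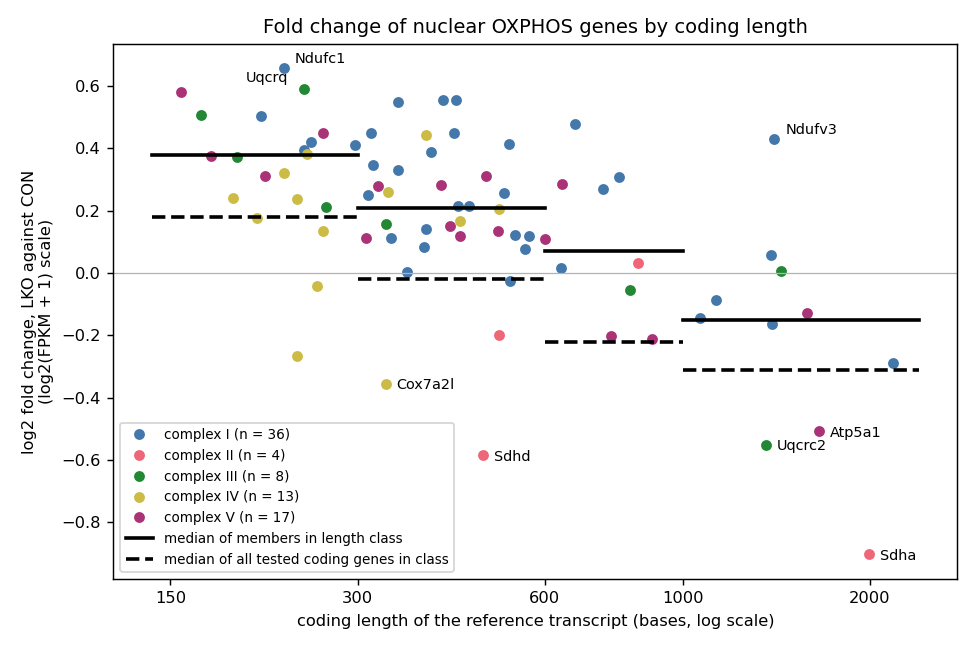
Log2 fold change of each tested member, LKO against CON, on the log2(FPKM + 1) scale, against the coding length of its reference transcript (log axis), coloured by complex. Solid lines are the medians of the members in 4 length classes (0.38, 0.21, 0.07 and -0.15) and dashed lines those of all tested coding genes (0.18, -0.02, -0.22 and -0.31), and both go down with length.

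The length trend lay between libraries, not only between groups. Each library's deviation from the mean of all libraries correlated with coding length across the members at rho = 0.58, 0.42 and 0.38 in CON 1 to CON 3, -0.50 and -0.59 in LKO 1 and LKO 2, and 0.53 in LKO 3. Across all tested genes and the deposited gene length it was 0.27, 0.10 and 0.29 in CON, -0.33 and -0.30 in LKO 1 and LKO 2, and 0.21 in LKO 3. LKO 3 thus had a trend with length of the same sign as the controls, opposite to LKO 1 and LKO 2. As these deviations cancel out over the libraries, the sign for any library depends on the others. Against the CON mean, the median members of the coding length classes, short to long, deviated by 0.60, 0.40, 0.26 and -0.11 in LKO 1. In LKO 2 they deviated by 0.61, 0.27, 0.10 and -0.26, and in LKO 3 by -0.09, -0.08, -0.13 and -0.13. Removing each library's trend with the deposited length brought the difference between the members' median and that of all genes from 0.44 to 0.18. Removing that with the reference mRNA length, an alternative chosen after seeing the data, brought it to 0.11. The part of length in the members' differences beyond these values was not tested.

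The deposited length of several members far exceeded their coding length: it was 6310 bases for Atp5l (coding length 309), 4435 for Ndufb7 (411), 4371 for Ndufb2 (315), 4715 for Atp5g1 (408) and 3038 for Cox6c (228). Across the members rho between deposited and coding length was 0.55, and rho between log2 fold change and deposited length was -0.20. How these lengths entered the authors' FPKM is not stated in the sources used here.

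Many short OXPHOS genes have processed pseudogenes, copies of the spliced mRNA pasted elsewhere in the genome, whose reads can be hard to tell from the gene's. Of the 78 tested members, 21 had at least 1 reference transcript of another gene that was at least 95% identical over at least 80% of the coding sequence. Such a copy was itself at a mean of 1 FPKM or more for 5 of them: Ndufb4, Cox7c, Cox7a2l, Atp5g2 and Atp5l. The coding sequence of Cox7c, on chromosome 13, and the processed pseudogene Gm12338, on chromosome 11, show why. They are given from the GENCODE M21 transcripts (GRCm38) with the start and stop codons in capitals, and 192 of 192 bases are the same.
Cox7c: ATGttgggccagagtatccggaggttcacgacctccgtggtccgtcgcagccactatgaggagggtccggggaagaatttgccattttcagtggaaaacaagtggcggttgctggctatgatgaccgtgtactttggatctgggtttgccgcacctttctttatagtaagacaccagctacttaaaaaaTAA
Gm12338: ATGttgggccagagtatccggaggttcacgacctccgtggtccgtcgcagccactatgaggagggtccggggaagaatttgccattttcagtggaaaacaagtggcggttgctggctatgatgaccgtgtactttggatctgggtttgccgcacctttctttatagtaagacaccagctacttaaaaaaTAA

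Gm12338 was at 467.08, 553.11 and 428.29 FPKM in CON and at 1087.50, 909.56 and 410.86 FPKM in LKO, beside 538.61, 508.96 and 524.13 FPKM in CON and 723.79, 670.79 and 487.45 FPKM in LKO for Cox7c. The copy was as high as the gene, with the same order of libraries in LKO. Gm10221, identical over 309 bases to Atp5l, was at 254.70, 281.64 and 394.54 FPKM in CON and at 503.84, 449.24 and 296.25 FPKM in LKO. Ndufb4c, identical over 390 bases to Ndufb4, averaged 202 FPKM over the 6 libraries, while Ndufb4 itself averaged 25.3. For these members the level of the gene's own row is therefore uncertain. In the same way, an assembled locus with the protein annotation of Ndufs3 averaged 124 FPKM, while the Ndufs3 row averaged 3.57, and its values of 133.95, 116.24 and 118.08 FPKM in CON and 141.86, 120.46 and 114.46 FPKM in LKO overlapped. The median log2 fold change was 0.25 for the 21 members with a near-identical copy and 0.15 for the 57 without. Those with a copy were also shorter, with a median coding length of 348 bases against 438. Copies and length were not tested apart.

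**Figure D5:**
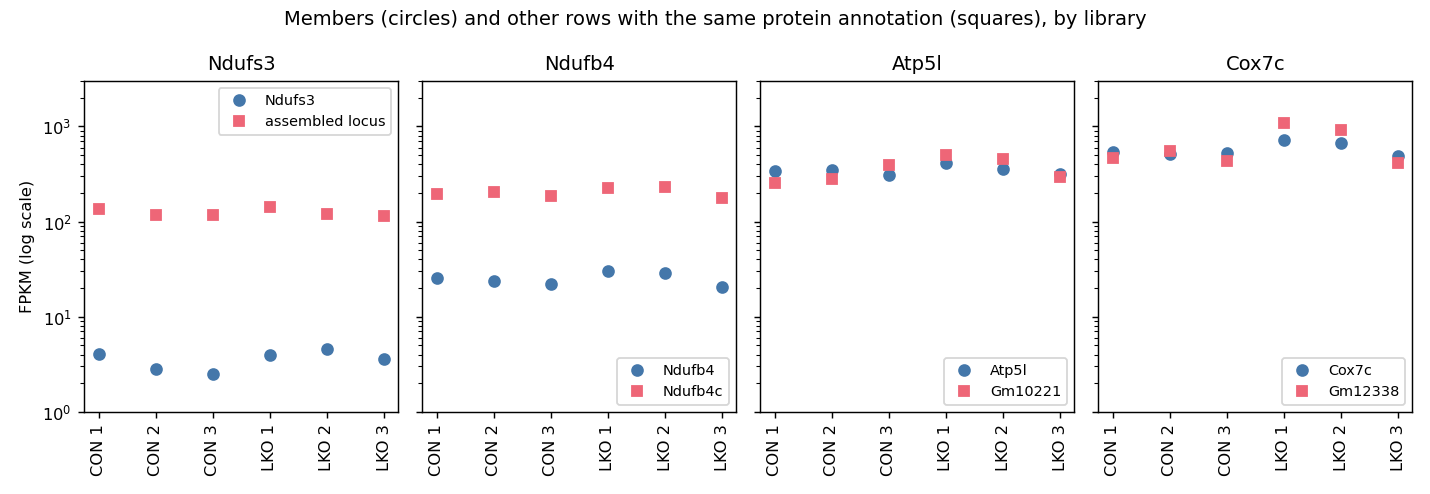
FPKM (log axis) in each library of 4 members (circles) and of another row with the same protein annotation (squares). The other row is as high as the member for Atp5l and Cox7c and far above it for Ndufs3 and Ndufb4.

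Many promoters of nuclear OXPHOS genes are known to bind NRF1 and the ETS-family factor GABP. Promoter sequences of 250 bases before to 50 bases after the start, from RefSeq (GRCm38.p6), matched 66 of the 78 tested members. The NRF1 core, the letters in capitals in the Atp5k sequence printed with these results, was found in 5 of 66 (7.58%), in 2.47% of the promoters of all matched tested genes and in 1.07% of 27025 promoters. The ETS core CCGGAAG, on either strand, was found in 16 of 66 (24.2%), in 21.6% of those of tested genes and in 9.93% of all. The median log2 fold change was 0.26 with and 0.22 without the NRF1 core, and 0.24 with and 0.23 without the ETS core. An example of each, both from genes high in LKO 1 and LKO 2, shows the last 120 bases before the start, with the match in capitals. Atp5k is at chr5:108434400-108434519 and Atp5e at chr2:174464102-174464221, both on the minus strand and in GRCm38.p6, and the Atp5e match is the reverse complement of the ETS core. A match is a description of these letters, not a bound site.
Atp5k: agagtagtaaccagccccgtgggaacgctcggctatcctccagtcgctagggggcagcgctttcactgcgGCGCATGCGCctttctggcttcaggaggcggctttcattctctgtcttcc
Atp5e: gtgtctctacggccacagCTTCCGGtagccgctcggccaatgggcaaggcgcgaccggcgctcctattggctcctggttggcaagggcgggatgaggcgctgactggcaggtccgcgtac

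Genes that work beside the complexes were described by list. In limma with all 6 libraries no gene of the lists that follow was called, and counts at an unadjusted p under 0.05 are given in their place. Among all tested genes 28.4% were above 0, and 3.25% were higher and 18.9% lower at that p. After median-ratio scaling these shares were 51.1%, 10.2% and 7.96%, and without LKO 3 limma called 4.60% higher and 19.0% lower after adjustment. The mitochondrially encoded subunits, the partners of the members in complexes I, III, IV and V, had a log2 fold change above 0 in 12 of 12 tested genes (median 0.69, 1 higher and 0 lower at an unadjusted p under 0.05). After median-ratio scaling the median was 0.99 with 2 higher and 0 lower, and without LKO 3 there were 6 called higher and 0 lower. The gene left untested, mt-Atp6, was listed at 0 in every library. They summed to 49912, 41919 and 36027 FPKM in CON and to 59306, 123339 and 37913 FPKM in LKO, so LKO 2 stood far above the rest and LKO 3 was within the controls' range. The ratio of the members' summed FPKM to theirs was 0.388, 0.440 and 0.502 in CON and 0.420, 0.195 and 0.465 in LKO. mt-Co2, a subunit of complex IV, was at 414.92, 462.24 and 276.97 FPKM in CON and at 631.91, 770.76 and 466.60 FPKM in LKO (log2 fold change 0.70 ± 0.27 SE, limma adjusted p = 0.210), and it was called without LKO 3 (adjusted p = 0.0473). Mitochondrial genes have nuclear copies, and their single values are uncertain.

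Of 47 tested assembly factors, which build the complexes without staying in them, 15 had a log2 fold change above 0 (median -0.21, near the -0.23 of all genes), with 4 higher and 6 lower at an unadjusted p under 0.05. After median-ratio scaling the median was 0.08 with 6 higher and 1 lower, so the balance turned, and without LKO 3 there were 6 called higher and 4 lower. Nubpl, which delivers iron-sulfur clusters to complex I, was at 4.20, 3.32 and 2.62 FPKM in CON and at 1.48, 0.74 and 2.14 FPKM in LKO (-0.86 ± 0.26, adjusted p = 0.180). Coa7, of complex IV assembly, was at 13.93, 12.64 and 11.71 FPKM in CON and at 22.44, 18.24 and 17.28 FPKM in LKO (0.56 ± 0.18, adjusted p = 0.183). Both had groups that did not overlap, in opposite directions, and both were called without LKO 3 (adjusted p = 0.0290 and 0.0413 in limma).

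Of 16 electron carriers and enzymes of coenzyme Q synthesis, 4 were above 0 (median -0.39), with 0 higher and 5 lower at an unadjusted p under 0.05. After median-ratio scaling the median was -0.09 with 2 higher and 0 lower, so these counts turned, and without LKO 3 there were 0 called higher and 3 lower. Etfdh, which feeds electrons of fatty acid oxidation into coenzyme Q, was at 198.41, 160.78 and 164.89 FPKM in CON and at 94.82, 57.79 and 147.40 FPKM in LKO (-0.89 ± 0.32, adjusted p = 0.196). Coq9 was at 63.62, 45.49 and 48.34 FPKM in CON and at 32.54, 25.63 and 40.93 FPKM in LKO (-0.66 ± 0.23, adjusted p = 0.190). In both genes every LKO library was below every control, and both were called lower without LKO 3 (adjusted p = 0.0232 and 0.0345 in limma).

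Of 11 tested carriers of ADP, ATP, phosphate and dicarboxylates, porins and uncoupling proteins, 1 was above 0 (median -0.48), with 0 higher and 6 lower at an unadjusted p under 0.05. After median-ratio scaling the median was -0.19 with 5 above 0, 0 higher and 4 lower, and without LKO 3 there were 0 called higher and 4 lower, Slc25a5 and Vdac1 among them. Slc25a5, the ADP/ATP exchanger, was at 377.30, 319.64 and 306.82 FPKM in CON and at 238.73, 186.23 and 264.69 FPKM in LKO (-0.55 ± 0.20, adjusted p = 0.197), a gene outside the rule of the 4 smallest p, chosen after its values were seen. Vdac1, the main porin of the outer membrane, was at 97.50, 72.46 and 77.29 FPKM in CON and at 47.15, 37.63 and 64.91 FPKM in LKO (-0.74 ± 0.24, adjusted p = 0.186). Of 17 other mitochondrial proteins, 2 were above 0 (median -0.34), with 0 higher and 3 lower at an unadjusted p under 0.05, a share near that of all genes. After median-ratio scaling the median was -0.05 with 1 higher and 2 lower, and without LKO 3 there were 0 called higher and 5 lower, Opa1 among them. Opa1, which fuses inner membranes, was at 20.33, 12.91 and 13.89 FPKM in CON and at 5.77, 4.43 and 11.78 FPKM in LKO (-1.08 ± 0.34, adjusted p = 0.182).

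Of 17 tested regulators of mitochondrial gene expression, 8 were above 0 (median -0.16), with 0 higher and 4 lower at an unadjusted p under 0.05. After median-ratio scaling the median turned to 0.13 with 11 above 0, 3 higher and 2 lower, and without LKO 3 there were 0 called higher and 4 lower, Gabpa and Tfam among them. Gabpa, the DNA-binding part of GABP, was at 8.30, 6.94 and 9.58 FPKM in CON and at 3.84, 2.83 and 6.99 FPKM in LKO (-0.80 ± 0.29, adjusted p = 0.196). Tfam, which packs and transcribes mitochondrial DNA, was at 25.54, 19.25 and 16.78 FPKM in CON and at 10.86, 5.94 and 17.70 FPKM in LKO (-0.88 ± 0.35, adjusted p = 0.212). Both were low in LKO 1 and LKO 2, the libraries in which most OXPHOS members were high, and their LKO 3 values lay within the control range. Being below every control in LKO 1 and LKO 2 was common: it held for 46.6% of all genes and for 5 of the 17 regulators. Both genes are long, with deposited lengths of 4987 and 4167 bases, and tested genes over 1500 bases had a median log2 fold change of -0.28. Of the 3 subunits that the name rule misses, Ndufab1, Ndufa4l2 and Cyc1, all had a log2 fold change above 0 (median 0.26), and Ndufab1, the acyl carrier protein of complex I, was at 124.68, 94.02 and 102.57 FPKM in CON and at 190.85, 149.66 and 103.98 FPKM in LKO (0.43 ± 0.25, adjusted p = 0.315, and 0.0499 without LKO 3).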

How the data were processed

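Liver RNA was measured in 3 CON and 3 LKO libraries. The authors deposited FPKM per gene and library. Per the submitters' processing notes, HISAT2 and StringTie were used with the mm9 build; their versions, annotation and strand settings are not stated in the sources at hand. Whole reads could not be recovered from the FPKM, so depth in reads is unknown and no count model was used. Gene lengths in bases are part of the deposited table.

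The 11104 genes whose mean FPKM reached 1 were tested on log2(FPKM + 1) with limma 3.58.1 in R 4.3.3 (lmFit, eBayes with trend), two-sided, with Benjamini-Hochberg adjustment over all of them and a threshold of 0.05. Fold changes on this scale understate low genes. Coding and mRNA lengths came from 1 reference transcript a gene in GENCODE M21 (GRCm38), matched by identifier for 55450 of 55536 Ensembl genes, and exclude the stop codon. Near-identical copies were sought with blastn 2.17.0+. The code was tested on simulated data. Alternatives were other pseudocounts, filters, scalings, length and GC corrections, array weights, a replicate block and leaving out each library.

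The members and lists were chosen with earlier results of these data known. In each complex the text gives by library the 4 members with the smallest unadjusted p, the 2 longest and 2 shortest by deposited length, the most abundant, every member of a complex with 6 or fewer, and the isoform pairs of complex IV. Others are given by means, ranges and counts, and those whose groups did not overlap also by library. Of the other lists, some of the 4 members with the smallest p are given. By name, 1 member is not reported here; it stays in the counts, sums and medians.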

Additional observations from a re-analysis of the deposited data

How the results depend on the processing

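With all 6 libraries no member was called in limma under the other pseudocount, filters, scalings, length corrections or replicate block, and the members' median exceeded that of all genes in every setting, by 0.11 to 0.69 against 0.44. Over all genes the main fit called 0 higher and 1 lower. That 1 became 0 with a pseudocount of 0.1, no filter, a filter of 5 FPKM, each length correction and the replicate block, and 2 with mitochondrial genes left out. Array weights, whose fit did not converge and rested on LKO 1 (weight 13.8), called 1688 genes higher and 4176 lower, and 54 and 5 members, with Cd36 at -2.86. Leaving out 1 library at a time gave 0 to 511 genes higher, 0 to 2115 lower, 0 to 25 members higher, 0 to 4 lower and Cd36 at -2.98 to -2.03; every member call came without LKO 3, and among these fits Cd36 passed only there. Chosen after seeing the data, the length correction without LKO 3 called 699 genes higher and 634 lower, 17 and 3 members, and Cd36 at -2.62; median-ratio scaling without LKO 3 called 1259 and 917 genes, 52 and 1 members, and Cd36 at -2.65. The causes were not tested.

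The labels do not say whether the replicate numbers pair the libraries. Deviations of same-numbered libraries correlated at -0.05, 0.17 and 0.07, and those of other pairs at -0.16 to 0.06. With 3 libraries a group these values cannot settle whether libraries were paired. With the replicate block 0 genes passed (smallest adjusted p 0.0669), and 1 member was higher and 3 lower at an unadjusted p under 0.05.

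Members with small fold changes turned sign, listed here for those chosen by rule to be given by library. Median-ratio scaling gave Sdhc 0.10, Atp5b 0.17 and Cox6b1 0.26, and without LKO 3 also Sdhc 0.11, Atp5b 0.20, Cox6b1 0.40 and Cox7a1 0.15. Over all members that scaling brought those above 0 from 61 to 72. Among them were Ndufv1 (0.13) and Atp5c1 (0.09), given by library because their groups did not overlap. With mitochondrial genes left out and the libraries rescaled, Sdhb was -0.25, Uqcrc1 -0.28, Uqcrb -0.13, Cox5a -0.12, Cox8a -0.11, Cox6a1 -0.03, Cox7b -0.05, Cox4i1 -0.08, Cox6b2 -0.02, Atp5l -0.17 and Atp5g1 0. The length correction gave Sdhc 0.07, Uqcrb -0.06, Cox8a -0.05, Atp5b 0.05 and Cox6b2 -0.07. With GC content added these were 0.11, -0.01, -0.08, 0.06 and -0.08, and with the length correction without LKO 3 they were 0.09, -0.08, -0.08, 0.02 and -0.21. By mRNA length they were 0.10, -0.05, -0.02, 0.08 and -0.04, with Atp5l -0.08 and Atp5k 0. Array weights gave Cox6b1 0.12. Leaving out 1 library at a time gave Cox6b1 -0.15 to 0.05, Sdhb -0.07 to 0.16, Uqcrc1 -0.07 to 0.10.

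No FPKM carries its depth, so the precision of low genes is unknown. With 3 libraries a group, and LKO 3 near the controls, a missed threshold does not show that levels were the same.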
